A study of Mus musculus with 15 samples.

Results

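Neutrophil granule and surface genes were examined in mouse whole blood 6 h after dosing with ABBV-075. This compound, also called mivebresib, blocks the bromodomains with which BET proteins read acetylated lysines on histones. The list held 34 genes, given by name and chosen with earlier results of these data known: granule proteins, surface receptors, and cytosolic, secreted or metabolic proteins by which neutrophils are recognised. A probe set annotated with the gene alone was found for 29 of the 34, and 23 were bright enough to test, out of 12499 genes tested among the 18193 with such a probe set. The 3 groups of mice received vehicle alone, or 1 mg/kg or 5 mg/kg of the compound. Each group had 5 Affymetrix expression arrays, numbered in the sample titles and each read here as 1 animal. The labels give no strain, sex, age, vehicle composition or route of dosing, and the series title names the search for responsive markers in blood as the purpose.

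Neutrophils are short-lived phagocytes that store antimicrobial proteins in granules made one after another as the cell matures in bone marrow. Primary granule proteins such as Mpo and Elane are made by promyelocytes, secondary granule proteins such as Ltf, Camp and Ngp by myelocytes and metamyelocytes, and gelatinase-containing tertiary granules later still. Mature cells leave for the blood with most granule transcripts shut off, while mRNA for S100a8, S100a9 and receptors such as Csf3r and Fpr2 stays abundant.

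Defining neutrophil transcripts were detected in this blood. S100a8 and S100a9, the 2 subunits of the cytosolic calprotectin complex, and Fpr2 were above the detection floor on all 15 arrays, and Csf3r on 14. Of the primary granule genes, the neutrophil elastase gene Elane was at the floor on every array and the proteinase 3 gene Prtn3 was above it on 1, at a log2 intensity of 4.09. The other primary granule genes, Mpo and Ctsg, were each above the floor on 13 arrays. Camp, the cathelicidin of secondary granules, was above the floor on 1 array at 5.75, and Ltf, which encodes lactoferrin, on 6. Other secondary and tertiary granule genes, Ngp, Lcn2, Chil3, Hp and Pglyrp1, were above it on all 15. The floor was an intensity of 16, or 4 on the log2 scale, and every value below is a log2 intensity after quantile normalisation unless a log2 difference is named. Levels of different genes come from different probe sets and are not set against each other.

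Of the 34 genes, 11 gave no test. Elane, Prtn3, Camp, Cd177, Padi4 and Hdc exceeded the floor on fewer than 5 arrays. Cd177, a neutrophil surface glycoprotein, and Hdc, the histamine-forming enzyme, were at the floor on all 15 arrays. Padi4, the peptidylarginine deiminase that citrullinates histones in neutrophils, exceeded it on 3 arrays and reached 4.59. Cebpe, Fpr1, Ly6g, Mmp25 and Retnlg had no probe set annotated with the gene alone and were not analysed here. Of the 23 tested genes, 15 were above the floor on all 15 arrays, and a difference for a gene near the floor understates the change.

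Before the comparisons, several array-wide measures differed in ways that touch these genes. The deposited intensities had medians of 3.61 to 25.4 per array, with 1 mg/kg replicate 1 the dimmest and 1 mg/kg replicate 4 the brightest. The 18S ribosomal RNA control averaged 11.19 ± 0.94 in the vehicle group, 9.97 ± 0.43 in the 1 mg/kg group and 9.42 ± 0.42 in the 5 mg/kg group (SD, n = 5 each), so it moved with dose. Its lowest vehicle value, 10.24, lay above its highest 5 mg/kg value, 9.88. A fit with 18S as a covariate therefore cannot fully separate 18S from that dose. Transcripts known from liver were detected in most of these blood samples. The mean of 10 liver markers, a list written after the values of Hp had been seen, ran over 4.48 to 11.10 in vehicle, 6.30 to 12.28 at 1 mg/kg and 4.37 to 10.47 at 5 mg/kg, and vehicle replicate 2 and 5 mg/kg replicate 5 were the arrays near the floor. Alb, the serum albumin gene, reached 13.52 on 1 mg/kg replicate 4 and was at 6.36 on 5 mg/kg replicate 5. The values that bear on single genes are given beside those genes.

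At 5 mg/kg, none of the 23 tested genes passed an adjusted p of 0.05, the threshold used here with limma on all 15 arrays and Benjamini-Hochberg adjustment over 12499 genes. The share of all tested genes called in that comparison was 0.088%, 11 genes. At an unadjusted p under 0.05, Fpr2 and Chil3 were lower at 5 mg/kg than in vehicle, against 4.26% of all genes, and Anxa1 was higher, against 3.51%. In 2 of the 23, again Fpr2 and Chil3, every 5 mg/kg array lay below every vehicle array, against 1.46% of all genes, and in 0 did every array lie above, against 1.11%. By sign alone, 11 genes were higher at 5 mg/kg and 12 lower, with a median log2 difference of -0.10, against -0.03 over all tested genes. With the 18S signal as a covariate the median of the 23 was -0.57, given without the all-gene median of that fit. These arrays measure RNA from all blood cells together, so fewer neutrophils and less RNA per neutrophil cannot be told apart.

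In the 1 mg/kg comparison, again none of the 23 passed limma's adjusted p of 0.05, against 0.008% of all tested genes, which was 1 gene. At an unadjusted p under 0.05, Chil3, Fpr2 and S100a8 were lower than in vehicle and 0 were higher, against 4.06% and 1.97% of all genes. No gene of the 23 separated the 1 mg/kg arrays from the vehicle arrays, against 0.904% of all genes. By sign 9 genes were higher at 1 mg/kg and 14 lower, with a median log2 difference of -0.12, against -0.02 over all genes. The median of the 23 was -0.38 with the 18S covariate, again given without the all-gene median of that fit. Both doses were compared with the same 5 vehicle arrays, so their differences are not independent of each other.

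Between the doses, none of the 23 passed limma's adjusted p of 0.05 in 5 mg/kg against 1 mg/kg, and the share over all tested genes was 0%. At an unadjusted p under 0.05, 1 gene, Anxa1, was higher at 5 mg/kg, against 5.26% of all genes, and 0 were lower, against 2.63%. In 0 of the 23 did the 5 mg/kg and 1 mg/kg arrays separate, against 1.16% of all genes. The median log2 difference of the 23 genes was 0.20, with 14 higher and 9 lower at 5 mg/kg, against a median of -0.02 and 47.7% higher over all tested genes.

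**Figure D1:**
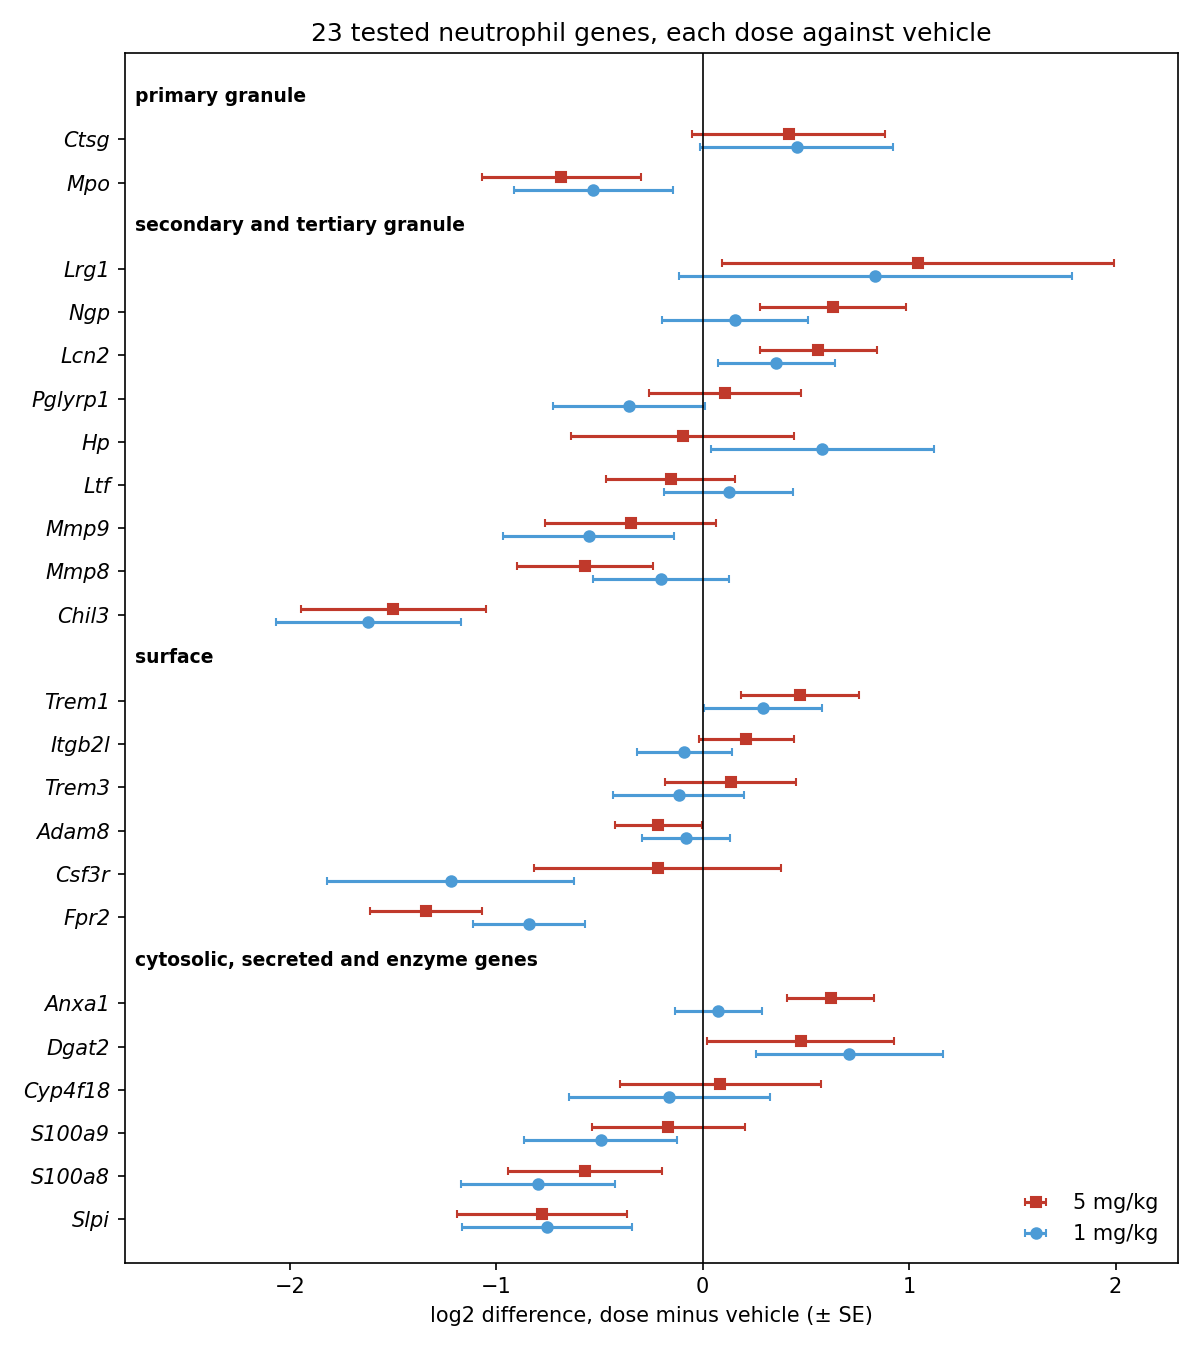
Log2 difference of each of the 23 tested genes at 5 mg/kg (red squares) and 1 mg/kg (blue circles) against vehicle, with limma's standard error as whiskers (n = 5 arrays per group), grouped by class. Chil3 and Fpr2 lie left of 0 at both doses, Anxa1 lies right of 0 at 5 mg/kg, and within each class other genes fall on both sides.

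The surface class held the gene with the smallest p of the list. Fpr2 encodes a formyl peptide receptor through which neutrophils sense bacterial and mitochondrial peptides, serum amyloid A and annexin A1. In vehicle its values were 7.19, 7.56, 7.72, 7.84 and 6.60, at 1 mg/kg 6.51, 6.46, 7.02, 6.44 and 6.27, and at 5 mg/kg 6.52, 5.74, 5.60, 6.59 and 5.76. Every 5 mg/kg array was below every vehicle array, although the highest, 6.59, lay just under vehicle replicate 5 at 6.60, and the 1 mg/kg arrays overlapped both groups. The means were 7.38 ± 0.50 in the vehicle group, 6.54 ± 0.28 in the 1 mg/kg group and 6.04 ± 0.47 in the 5 mg/kg group (SD, n = 5 each).

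The log2 difference of Fpr2 at 5 mg/kg against vehicle was -1.34 ± 0.27 (SE), with a 95% interval of -1.92 to -0.76, or 2.53-fold lower, with an unadjusted limma p of 0.000153 and an adjusted p of 0.0715. Fpr2 therefore missed the threshold in the fit of all 15 arrays. Leaving out vehicle replicate 5, the lowest vehicle array, gave -1.53 with an adjusted p of 0.0365, and the other single-array omissions left it above 0.05. Over 15 other settings the adjusted p ran over 0.0332 to 0.9996. It was under 0.05 with array weights, and also with a floor of 32 or a gene's probe sets averaged, where the Fpr2 values themselves were unchanged. With the 18S signal as a covariate it was 0.490, at a log2 difference of -1.30. The lower dose gave a log2 difference of -0.84 ± 0.27, or 1.79-fold lower, with a 95% interval of -1.42 to -0.26 and a limma adjusted p of 0.681. The doses differed from each other by -0.50, 5 mg/kg minus 1 mg/kg, with a 95% interval of -1.07 to 0.08 and a limma adjusted p of 0.685. Fpr2 is expressed by monocytes as well as neutrophils, and the 12 measured monocyte markers averaged 6.04 ± 0.11 at 5 mg/kg (range 5.94 to 6.22) and 6.94 ± 0.27 in vehicle (range 6.62 to 7.22; SD, n = 5 each). None of those 12 markers was at the floor throughout any group, and all 12 were lower at 5 mg/kg. Their part in the Fpr2 difference was not tested.

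The promoters of the 3 genes with an unadjusted limma p under 0.05 at 5 mg/kg against vehicle are shown, although none of these genes passed after adjustment. Each is 300 bases from 250 before to 50 after the RefSeq transcription start, on the strand of the gene, in GRCm38.p6. Capitals mark matches on either strand to TTGCNNAA, a site for C/EBP factors, to GAGGAA, a core site for PU.1, and to TATAAA, the TATA box. Both factors are named because they direct granulocyte genes. No base was shared by 2 motifs.
Fpr2, chr17:17887574-17887873, plus strand: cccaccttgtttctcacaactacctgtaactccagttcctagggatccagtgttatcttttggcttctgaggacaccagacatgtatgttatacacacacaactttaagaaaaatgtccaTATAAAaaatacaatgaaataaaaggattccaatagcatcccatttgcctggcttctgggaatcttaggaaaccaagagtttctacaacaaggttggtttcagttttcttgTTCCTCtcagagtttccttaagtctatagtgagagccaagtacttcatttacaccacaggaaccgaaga
Chil3, chr3:106167515-106167814, minus strand: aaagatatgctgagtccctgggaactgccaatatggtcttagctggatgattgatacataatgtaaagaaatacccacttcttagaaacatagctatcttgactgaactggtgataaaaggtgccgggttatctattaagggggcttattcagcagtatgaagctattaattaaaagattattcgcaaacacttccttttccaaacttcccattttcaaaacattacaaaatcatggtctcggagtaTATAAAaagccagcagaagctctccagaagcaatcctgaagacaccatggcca
Anxa1, chr19:20390622-20390921, minus strand: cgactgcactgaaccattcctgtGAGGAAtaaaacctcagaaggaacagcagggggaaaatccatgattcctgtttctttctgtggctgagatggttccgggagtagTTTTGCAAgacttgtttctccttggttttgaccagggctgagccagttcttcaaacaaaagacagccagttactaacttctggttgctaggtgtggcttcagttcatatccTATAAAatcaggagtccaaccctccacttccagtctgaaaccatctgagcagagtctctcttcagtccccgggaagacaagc

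The Fpr2 window held a PU.1 core beginning at base -19 and a TATA box beginning at -130. The Anxa1 window held all 3 motifs, with the C/EBP match at -143, the PU.1 core at -227 and the TATA box at -32. In the Chil3 window the TATA box at -3 was the only match. Over the 30 RefSeq promoters of the 29 listed genes that have one, the C/EBP letters occurred in 33.3%, the PU.1 core in 63.3% and the TATA box in 43.3%. Over all 32851 promoters of the same length the shares were 10.8%, 28.3% and 13.6%. A match describes the letters only, and binding was not measured.

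The other 5 tested surface genes did not pass at either dose. Csf3r, the receptor for granulocyte colony-stimulating factor, had 6.73, 7.08, 7.95, 7.77 and 7.22 in vehicle, 6.71, 7.21, 7.44, 5.28 and 4.00 at 1 mg/kg, and 6.61, 5.69, 8.16, 7.92 and 7.27 at 5 mg/kg. Its low values were replicates 4 and 5 at 1 mg/kg, the last at the floor, and replicates 1 and 2 at 5 mg/kg, and the groups overlapped. Csf3r differed on the log2 scale by -0.22 ± 0.60 at 5 mg/kg (95% interval -1.49 to 1.05, limma adjusted p = 0.978) and -1.22 ± 0.60 at 1 mg/kg (-2.49 to 0.05, limma adjusted p = 0.831). Without 5 mg/kg replicate 2 the Csf3r difference at that dose was 0.14, and without 1 mg/kg replicate 5 the difference at 1 mg/kg was -0.69.

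Trem1 and Trem3, activating receptors that signal through the adaptor DAP12, differed by 0.47 ± 0.29 and 0.14 ± 0.32 log2 at 5 mg/kg and by 0.29 and -0.12 at 1 mg/kg. With the 18S covariate both were below 0 at 5 mg/kg, at -0.17 for Trem1 and -0.80 for Trem3. Itgb2l, an integrin beta chain named for its likeness to CD18, differed by 0.21 ± 0.23 at 5 mg/kg and -0.09 at 1 mg/kg. For Trem1 and Itgb2l the other probe sets of the gene were at the floor on all 15 arrays, so each value rests on 1 probe set. Adam8, a membrane metalloproteinase, differed by -0.21 ± 0.21 at 5 mg/kg and -0.08 at 1 mg/kg. As a class, the 6 tested surface genes had 3 higher and 3 lower at 5 mg/kg (median -0.04) and 1 higher and 5 lower at 1 mg/kg (median -0.10).

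**Figure D2:**
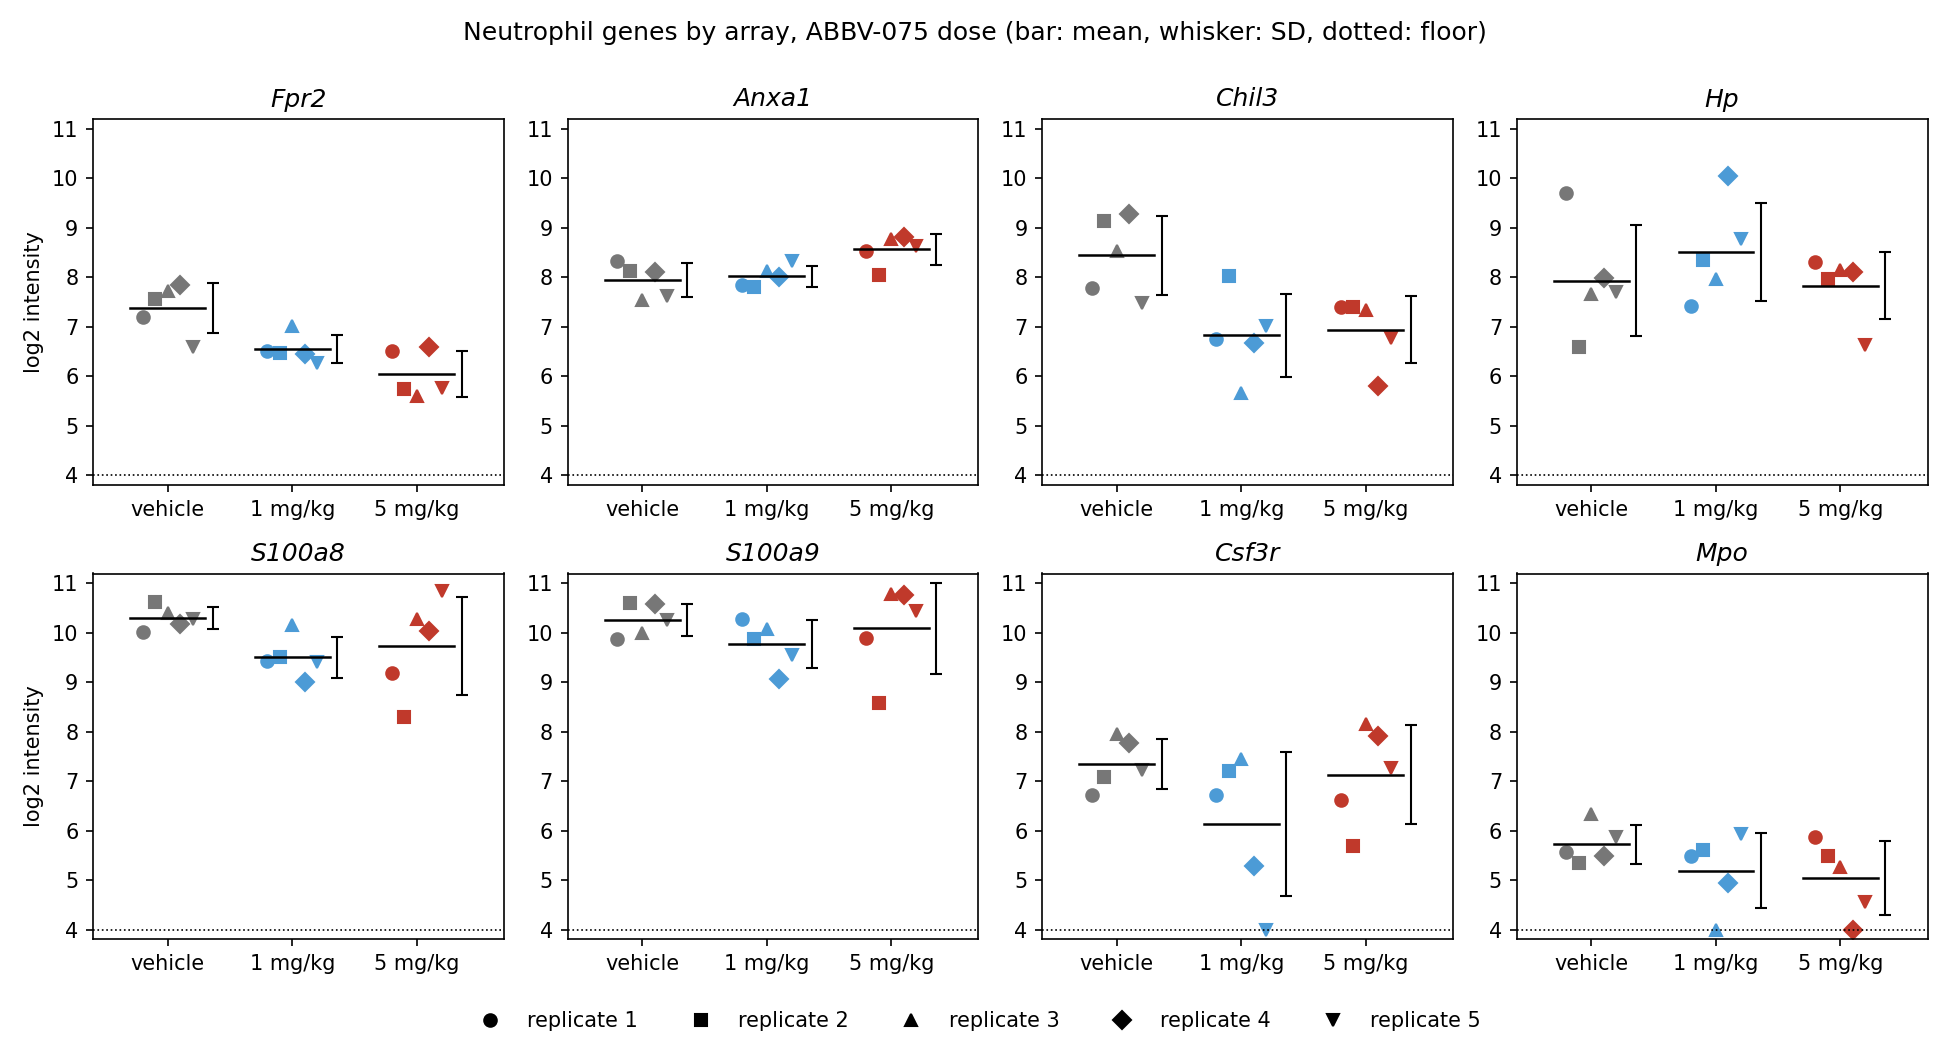
Log2 intensity of 8 genes on each of the 15 arrays by dose, with marker shape for the replicate number, a bar for the group mean and a whisker for the SD (n = 5). Fpr2 and Chil3 at 5 mg/kg lie below all vehicle points, 4 of the 5 Anxa1 points at 5 mg/kg lie above all vehicle points, and the low S100a8, S100a9 and Csf3r points at 5 mg/kg are replicates 1 and 2.

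Among secondary and tertiary granule genes, Chil3 had the only unadjusted p under 0.05. It encodes the chitinase-like protein Ym1, stored in neutrophil granules and also made by alternatively activated macrophages. Its vehicle values were 7.78, 9.14, 8.53, 9.27 and 7.48, its 1 mg/kg values 6.74, 8.03, 5.66, 6.66 and 7.02, and its 5 mg/kg values 7.40, 7.39, 7.33, 5.81 and 6.78. All 5 mg/kg arrays lay below all vehicle arrays, whereas 1 mg/kg replicate 2 lay above the 2 lowest vehicle arrays. The group means were 8.44 ± 0.80 in the vehicle group, 6.82 ± 0.85 in the 1 mg/kg group and 6.94 ± 0.68 in the 5 mg/kg group (SD, n = 5 each).

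The log2 difference of Chil3 was -1.50 ± 0.45 at 5 mg/kg, or 2.83-fold lower, with a 95% interval of -2.45 to -0.55, an unadjusted limma p of 0.00422 and an adjusted p of 0.293. At 1 mg/kg it was -1.62 ± 0.45, or 3.07-fold lower, with a 95% interval of -2.57 to -0.67 and a limma adjusted p of 0.477. The 2 doses differed by 0.12, 5 mg/kg minus 1 mg/kg, with an interval of -0.83 to 1.07. That interval leaves room for a difference between the doses of either sign, and neither difference from vehicle passed after adjustment. Of the 12 measured monocyte markers, 12 were lower at 5 mg/kg (median -0.88), and 10 were lower and 2 higher at 1 mg/kg (median -0.38). Which blood cells gave the Chil3 signal, and the part of monocytes in its differences, was not tested.

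The remaining 8 tested genes of this class went in both directions, and none had an unadjusted p under 0.05 at either dose. Ngp, a cathelicidin-related granule protein, differed by 0.63 ± 0.35 log2 at 5 mg/kg and 0.16 at 1 mg/kg, and Lcn2, the siderophore-binding lipocalin, by 0.56 ± 0.28 at 5 mg/kg and 0.36 at 1 mg/kg. The collagenase gene Mmp8 differed by -0.57 ± 0.33 at 5 mg/kg and -0.20 at 1 mg/kg, and the gelatinase gene Mmp9 by -0.35 ± 0.41 at 5 mg/kg and -0.55 at 1 mg/kg. The other probe set of Mmp9 was at the floor on all 15 arrays. Pglyrp1, a peptidoglycan-binding protein, differed by 0.11 ± 0.37 at 5 mg/kg and -0.36 at 1 mg/kg, and Ltf, at the floor on 9 of 15 arrays, by -0.15 ± 0.31 at 5 mg/kg and 0.13 at 1 mg/kg. With the 18S covariate Pglyrp1 differed by -0.94 at 5 mg/kg and Ltf by -0.37 at 1 mg/kg. With Chil3, Hp and Lrg1, the class had 4 higher and 5 lower at 5 mg/kg (median -0.10) and 5 higher and 4 lower at 1 mg/kg (median 0.13).

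Hp encodes haptoglobin, the haemoglobin-binding plasma protein kept in neutrophil granules and secreted in bulk by liver. Its values were 9.71, 6.59, 7.66, 7.97 and 7.71 in vehicle, 7.41, 8.34, 7.97, 10.05 and 8.77 at 1 mg/kg, and 8.31, 7.96, 8.14, 8.11 and 6.64 at 5 mg/kg. The highest values fell on 1 mg/kg replicate 4 and vehicle replicate 1, which also had the highest liver marker means, 12.28 and 11.10. The lowest fell on vehicle replicate 2 and 5 mg/kg replicate 5, where the liver marker means were 4.48 and 4.37. Hp differed on the log2 scale by -0.10 ± 0.54 at 5 mg/kg (95% interval -1.24 to 1.05, limma adjusted p = 0.989) and 0.58 ± 0.54 at 1 mg/kg (limma adjusted p = 0.911). With the liver marker mean as a covariate these were -0.29 at 5 mg/kg and 0.15 at 1 mg/kg, and without the 2 arrays of highest liver signal they were 0.35 at 5 mg/kg and 0.64 at 1 mg/kg. Both of those fits were chosen after seeing the data. The Hp difference at 5 mg/kg was also above 0 when vehicle replicate 1 was left out (0.35) and when 5 mg/kg replicate 5 was (0.20), so its sign rests on single arrays. At 1 mg/kg the Hp difference ran over 0.19 to 1.02 when 1 array was left out.

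A further pair of members that liver also expresses had some of the same arrays at their extremes. Dgat2, which catalyses the last step of triglyceride synthesis, was highest on 1 mg/kg replicate 4 at 9.73 and on vehicle replicate 1 at 8.50, and lowest on 1 mg/kg replicate 1 at 6.63 and vehicle replicate 2 at 6.71. Lrg1, a leucine-rich glycoprotein of granules and plasma, reached 8.15 on 1 mg/kg replicate 4 and was at the floor on vehicle replicates 2 and 3 and on 1 mg/kg replicates 1 and 2. With the liver covariate, the log2 difference of Dgat2 was 0.34 at 5 mg/kg and 0.41 at 1 mg/kg, and without it 0.47 at 5 mg/kg and 0.71 at 1 mg/kg. That of Lrg1 was 0.80 at 5 mg/kg and 0.30 at 1 mg/kg with the covariate, and 1.04 ± 0.95 at 5 mg/kg and 0.84 ± 0.95 at 1 mg/kg without it. Fpr2 and Chil3 moved little under the same covariate, to -1.35 and -1.48 at 5 mg/kg.

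**Figure D3:**
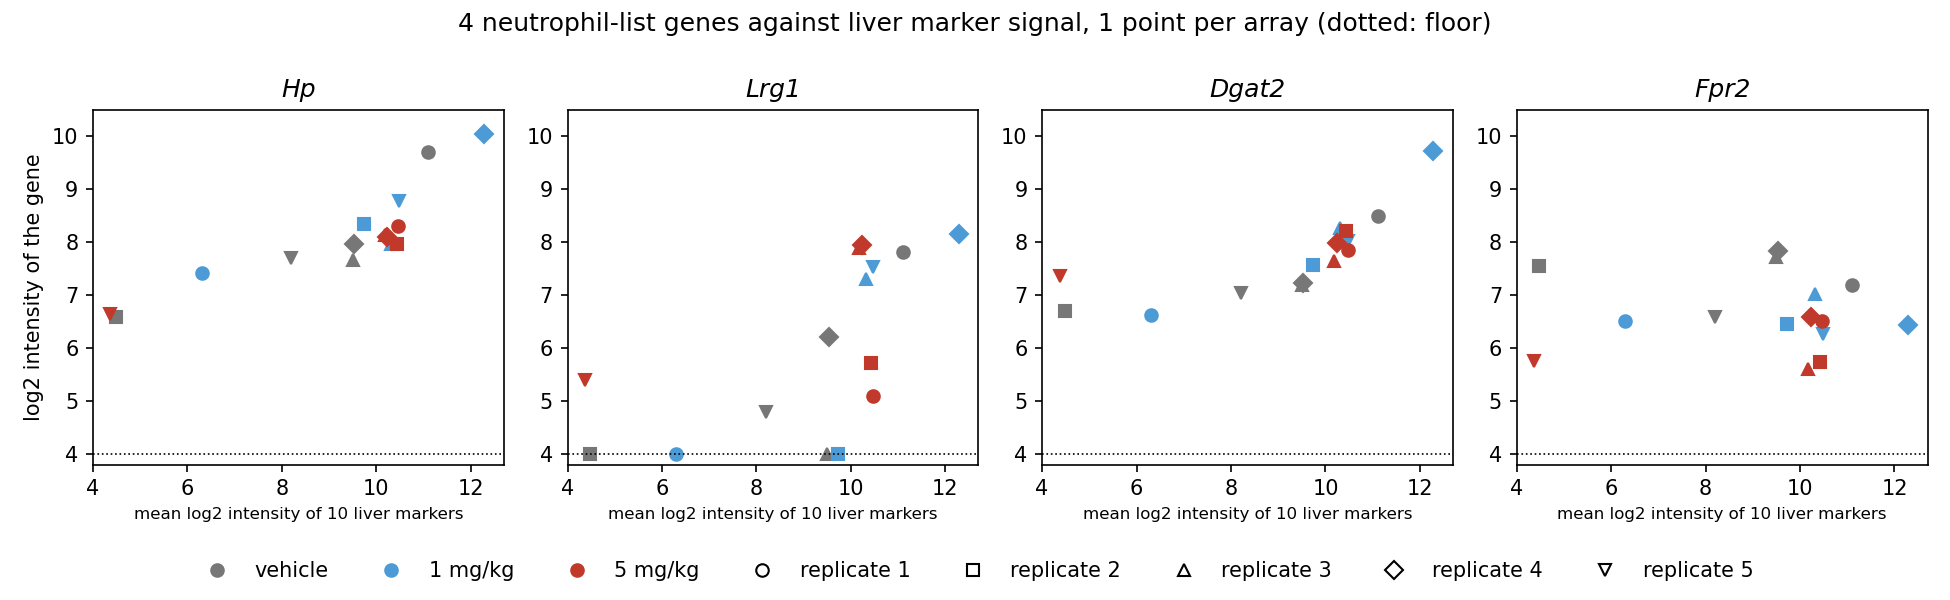
Log2 intensity of Hp, Lrg1, Dgat2 and Fpr2 (vertical axes) against the mean log2 intensity of 10 liver markers (horizontal axes) on each of the 15 arrays, coloured by dose. The Hp and Dgat2 points climb with the liver marker mean across all 3 groups, up to 1 mg/kg replicate 4 at 12.28, and the Fpr2 points show no such climb.

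The primary granule class offered 2 testable genes. Mpo, the myeloperoxidase gene, had 5.56, 5.34, 6.34, 5.50 and 5.87 in vehicle, 5.48, 5.61, 4.00, 4.94 and 5.93 at 1 mg/kg, and 5.87, 5.49, 5.26, 4.00 and 4.56 at 5 mg/kg. 1 array of each dosed group was at the floor and the groups overlapped. Mpo differed on the log2 scale by -0.68 ± 0.39 at 5 mg/kg (95% interval -1.50 to 0.13, limma adjusted p = 0.742) and -0.53 ± 0.39 at 1 mg/kg (limma adjusted p = 0.888). Leaving out 1 array, the Mpo difference ran over -0.89 to -0.43 at 5 mg/kg and -0.71 to -0.23 at 1 mg/kg. Ctsg, the cathepsin G gene, went the other way by 0.42 ± 0.47 at 5 mg/kg and 0.45 ± 0.47 at 1 mg/kg, also within its error. Of the progenitor and proliferation markers, 7 had a probe set and 3 of these were bright enough to test. The tested 3 averaged 5.01 ± 0.54 in the vehicle group, 4.62 ± 0.37 in the 1 mg/kg group and 4.67 ± 0.49 in the 5 mg/kg group (SD, n = 5 each). Kit, Flt3 and Cdk1 were at the floor on every array.

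Of the cytosolic, secreted and enzyme genes, Anxa1 was the one higher at 5 mg/kg with an unadjusted p under 0.05. It encodes annexin A1, a cytosolic protein that neutrophils release and that dampens their migration through the receptor encoded by Fpr2. Anxa1 was at 8.33, 8.12, 7.53, 8.11 and 7.62 in vehicle, at 7.84, 7.80, 8.13, 8.01 and 8.32 at 1 mg/kg, and at 8.53, 8.05, 8.77, 8.82 and 8.64 at 5 mg/kg. Replicate 2 was the one 5 mg/kg array within the vehicle range, and the 1 mg/kg arrays lay wholly within it. The group means were 7.94 ± 0.35 in the vehicle group, 8.02 ± 0.22 in the 1 mg/kg group and 8.56 ± 0.31 in the 5 mg/kg group (SD, n = 5 each).

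The log2 difference of Anxa1 was 0.62 ± 0.21 at 5 mg/kg, or 1.54-fold higher, with a 95% interval of 0.17 to 1.07, an unadjusted limma p of 0.00961 and an adjusted p of 0.385. At 1 mg/kg it was 0.08 ± 0.21 (95% interval -0.37 to 0.52), and 5 mg/kg minus 1 mg/kg was 0.54 ± 0.21 (0.10 to 0.99, limma adjusted p = 0.542). A dimmer second probe set of Anxa1, above the floor on 6 arrays, differed by -0.14 ± 0.27 at 5 mg/kg.

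S100a8 and S100a9 pair as calprotectin, which binds calcium and zinc and makes up much of the neutrophil cytosol. S100a8 was at 10.02, 10.62, 10.40, 10.17 and 10.29 in vehicle, at 9.44, 9.51, 10.15, 9.01 and 9.40 at 1 mg/kg, and at 9.19, 8.31, 10.29, 10.03 and 10.84 at 5 mg/kg. Its vehicle values varied least (SD 0.23), the 1 mg/kg values lay mostly below them, and the 5 mg/kg values covered a range wider than both (SD 0.99). The log2 difference of S100a8 was -0.57 ± 0.37 at 5 mg/kg (95% interval -1.36 to 0.22, limma adjusted p = 0.796) and -0.80 ± 0.37 at 1 mg/kg (unadjusted p = 0.0491, adjusted p = 0.828). Without 5 mg/kg replicate 2 the S100a8 difference at that dose was -0.21.

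S100a9 was at 9.87, 10.60, 10.005, 10.58 and 10.26 in vehicle, at 10.29, 9.88, 10.08, 9.06 and 9.54 at 1 mg/kg, and at 9.89, 8.59, 10.80, 10.77 and 10.44 at 5 mg/kg. The low arrays were again replicates 4 and 5 at 1 mg/kg and replicates 1 and 2 at 5 mg/kg, and the groups overlapped. Its log2 difference was -0.17 ± 0.37 at 5 mg/kg (limma adjusted p = 0.967) and -0.49 ± 0.37 at 1 mg/kg (limma adjusted p = 0.893). Without 5 mg/kg replicate 2 the S100a9 difference at that dose was 0.21, so its sign there rests on 1 array.

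Slpi, a secreted inhibitor of neutrophil elastase and cathepsin G, differed by -0.78 ± 0.41 log2 at 5 mg/kg (limma adjusted p = 0.722) and -0.75 ± 0.41 at 1 mg/kg (limma adjusted p = 0.843). Cyp4f18, a cytochrome that inactivates leukotriene B4, differed by 0.09 ± 0.49 at 5 mg/kg and -0.16 at 1 mg/kg, and its sign turned under several other settings, to -0.23 at 5 mg/kg with the 18S covariate. The probe set used was above the floor on 8 arrays. A second probe set of Cyp4f18, above the floor on 10 arrays, differed by -0.15 ± 0.23 at 5 mg/kg. The 6 tested genes of this class had 3 higher and 3 lower at 5 mg/kg (median -0.04) and 2 higher and 4 lower at 1 mg/kg (median -0.33).

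**Figure D4:**
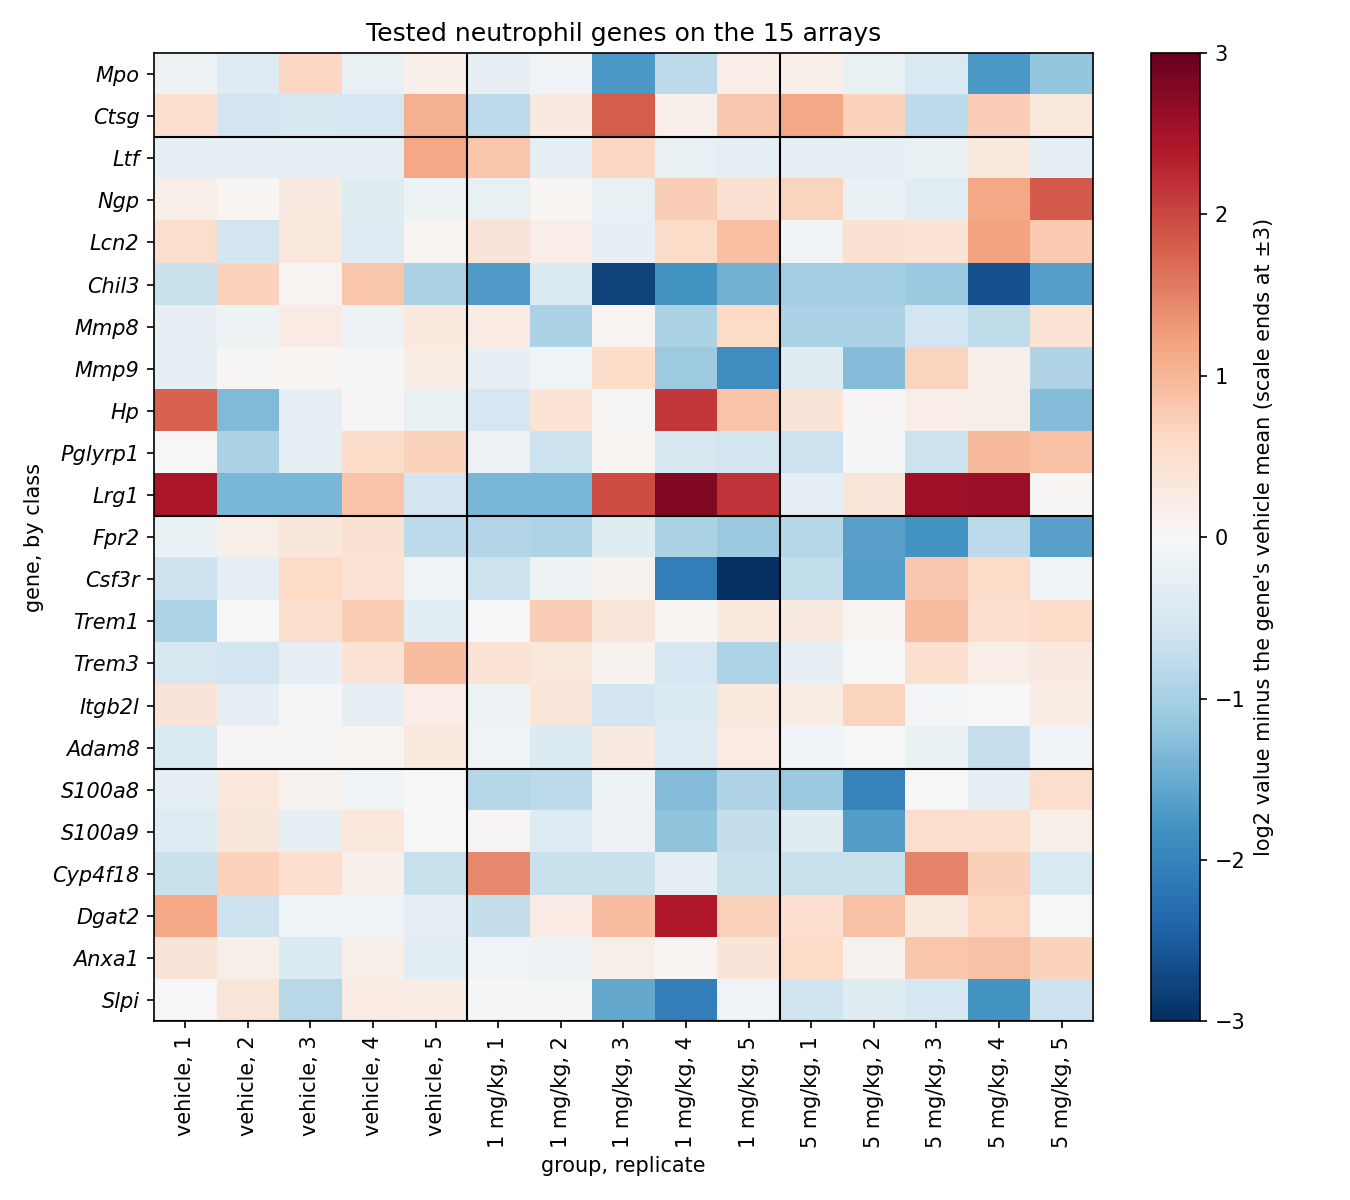
Log2 value minus the gene's vehicle mean for the 23 tested genes (rows, by class) on the 15 arrays (columns, by group and replicate), on a colour scale that ends at 3 in each direction. Chil3 and Fpr2 are blue across most dosed arrays, Lrg1, Hp and Dgat2 are red on vehicle replicate 1 and 1 mg/kg replicate 4, and Csf3r is darkest on 1 mg/kg replicates 4 and 5 and on 5 mg/kg replicate 2.

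A second list of 64 other genes known from neutrophils was compared with these 34, chosen by role and with earlier results of the same data known. Of these, 48 were tested, and none passed an adjusted p of 0.05 at 5 mg/kg or 1 mg/kg in limma. At 5 mg/kg 13 were higher and 35 lower, with a median log2 difference of -0.25, 9 lower and 0 higher at an unadjusted p under 0.05 (4.26% and 3.51% of all genes), and 6 with every 5 mg/kg array below every vehicle array (1.46% of all genes). In the 1 mg/kg comparison 14 were higher and 34 lower, with a median of -0.29, and 14 lower and 0 higher at an unadjusted p under 0.05 (4.06% and 1.97% of all genes). In 4 of the 48 every 1 mg/kg array lay below every vehicle array and in 0 above, against 0.904% of all genes that separated in either direction. Their median thus lay further below 0 than that of the granule and surface genes at both doses, a comparison given without a test.

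The 6 smallest p-values of that second list at 5 mg/kg belonged to Clec4e, Ncf1, Cst7, Cybb, Ceacam1 and Lyz2, all with lower means at 5 mg/kg than in vehicle. Ncf1 and Cybb encode subunits of the phagocyte NADPH oxidase, and differed by -0.94 ± 0.21 and -0.89 ± 0.23 log2 with limma adjusted p of 0.124 and 0.170. Clec4e, the C-type lectin receptor Mincle, differed by -1.06 ± 0.23 (limma adjusted p = 0.104), and Lyz2, the myeloid lysozyme, by -0.78 ± 0.22 (limma adjusted p = 0.262). Ceacam1, a cell adhesion glycoprotein with 8 probe sets, differed by -2.05 ± 0.59 (limma adjusted p = 0.261). The probe set used was above the floor on 2 of 5 arrays at 5 mg/kg, and the Ceacam1 difference ran over -2.49 to -0.52 across other settings. Cst7, a cysteine protease inhibitor above the floor on 8 arrays, differed by -0.78 ± 0.19. The 6 smallest p-values at 1 mg/kg were those of Cst7, Ncf1, Ifitm6, Serpinb1a, Clec4d and Ncf4, of which Cst7 and Ncf1 are also among the 6 at 5 mg/kg. Serpinb1a differed by -1.20 at 1 mg/kg, Ifitm6 by -0.96, Clec4d by -0.76 and Ncf4 by -0.74. Clec4e, Ncf1, Cybb and Lyz2 are also expressed by monocytes. Which blood cells gave the signal of these or the other named genes was not tested.

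Of 10 transcription factors of granulocytes and related blood lineages, 8 were tested. Cebpb, which drives granulocyte production under demand, and Klf4, which promotes the monocyte fate, had every 5 mg/kg array below every vehicle array, as did 1.46% of all tested genes, at log2 differences of -0.94 ± 0.21 and -0.75 ± 0.20 with limma adjusted p of 0.108 and 0.227. Spi1, which encodes PU.1, differed by -0.27, and Cebpa and Cebpd by -0.77 ± 0.52 and 0.15, which turned to 0.46 and -0.38 with the 18S covariate. Gfi1, a repressor needed for neutrophil differentiation, was at the floor on all 15 arrays. The median over the 8 was -0.14 at 5 mg/kg and -0.24 at 1 mg/kg.

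**Figure D5:**
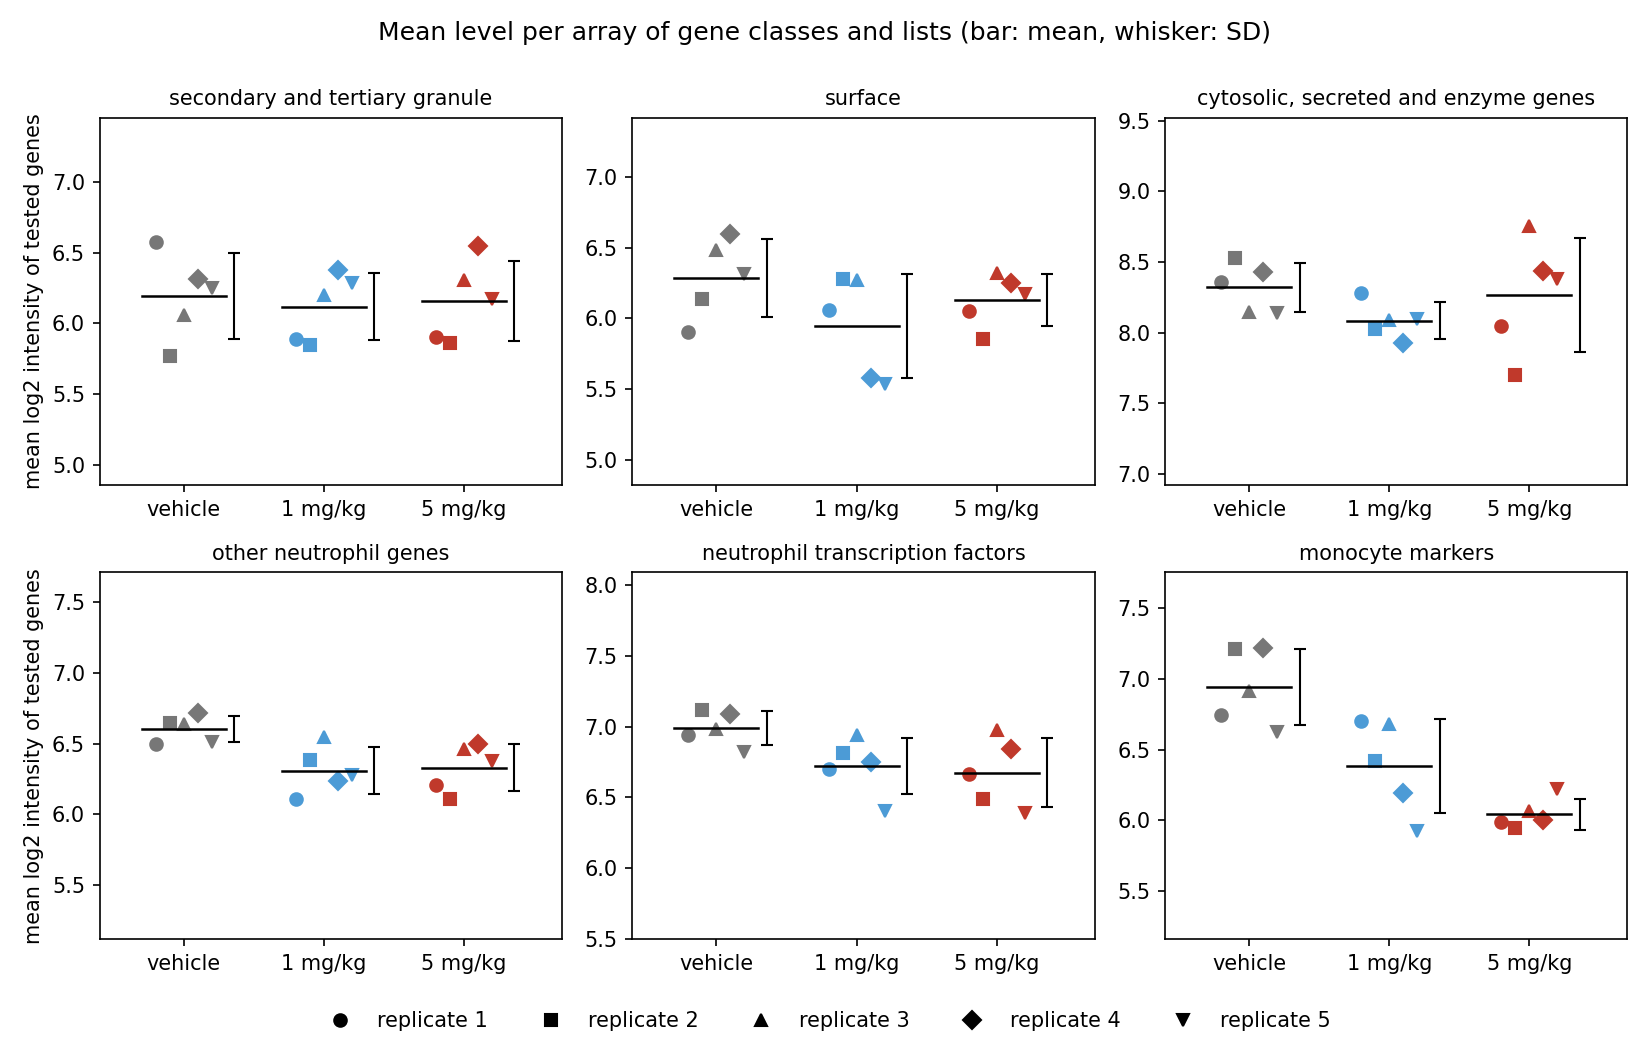
Mean log2 intensity per array of the tested genes of 3 member classes and 3 further lists, by dose, with marker shape for the replicate number, a bar for the group mean and a whisker for the SD (n = 5). The 3 member classes overlap across doses. The monocyte marker mean at 5 mg/kg lies below all vehicle arrays, with 6.04 ± 0.11 at 5 mg/kg and 6.94 ± 0.27 in vehicle. The mean of the other neutrophil genes does so too, narrowly, with a highest 5 mg/kg array of 6.498 and a lowest vehicle array of 6.499.

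Markers of other blood cells gave the setting in which these genes were read. At 5 mg/kg, 12 of 12 monocyte markers were lower than in vehicle (median log2 difference -0.88), 7 of 9 B cell markers were higher (0.49), 5 of 8 T cell markers were higher (0.17) and 6 of 6 NK cell markers were lower (-0.42). The corresponding medians for 1 mg/kg against vehicle were -0.38, -0.31, -0.25 and -0.51. Of the eosinophil and basophil markers, 3 of 11 could be tested, and the platelet and erythroid marker medians at 5 mg/kg were -0.21 and -0.61. No marker of these lists passed limma's adjusted p of 0.05 at either dose, and their part in the neutrophil gene differences was not tested.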

How the data were processed

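Total RNA was extracted from whole blood with Qiazol and RNeasy, and 200 ng was turned into biotinylated cRNA with the Affymetrix 3' IVT chemistry, per the labels' protocols. The deposited values are intensity values per probe set on a linear scale, read as such from the values themselves, with negatives and medians that differ between arrays. What software or scaling the authors used is not given in the sources used here.

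There were 45101 probe sets on each of 15 arrays. The 64 control probe sets were removed, the rest were quantile-normalised, values under 16 were set to 16, and log2 was taken. Gene names came from the platform annotation: 34945 probe sets had 1 gene, 932 several and 9160 none listed, and 0 symbols changed on matching by Entrez identifier. Each gene took the value of the probe set with the highest mean over the arrays and was tested if above the floor on at least 5 arrays. A linear model of group means was fitted to all 15 arrays with limma 3.58.1 under R 4.3.3 and moderated by eBayes, two-sided, with 12 residual and 3.90 prior degrees of freedom and a median standard error of 0.289, and p-values were adjusted over 12499 genes. The fit was tested on simulated data. The standard errors rest on the spread pooled over the 3 groups of 5 arrays and moderated across genes, and no sequencing depth applies to arrays.

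The members and all lists were chosen with earlier results of these data known, and the liver markers after the values of Hp were seen. Every array is described for members with an unadjusted p under 0.05 at either dose against vehicle and for the brightest tested member of each class. Of the other neutrophil genes, up to 6 with the smallest p at each dose are named. Genes of the remaining lists were named after their values were seen. Replicate numbers come from the sample titles. Promoter windows are those of RefSeq. Alternatives covered scaling, floor, detection rule, probe set choice, array weights, groups in the fit, covariates, the replicate number and leaving out each array.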

Additional observations from a re-analysis of the deposited data

Results flagged for a closer look

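In 7 of 69 groups of 5 arrays, 1 array stood apart from the other 4 by Dixon's criterion, which chance meets in about 1 in 20 groups. At 5 mg/kg, replicate 4 was high for Ltf (4.60, the others at 4.00 to 4.09) and low for Slpi (7.62, the others at 8.78 to 9.04) and Adam8 (5.78, the others at 6.26 to 6.46). Replicate 5 of that dose was high for Mmp8 (5.36, the others at 4.00 to 4.39) and low for Hp (6.64, the others at 7.96 to 8.31). At 1 mg/kg, Cyp4f18 was high on replicate 1 (6.11, the others at 4.00 to 4.40). In vehicle, Ltf was above the floor on replicate 5 alone, at 5.45. For both Ltf values, and for Cyp4f18, 3 or more of the other arrays in the group lay at the floor, and for Mmp8 2 did.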

How the results depend on the processing

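The number of the 23 genes called at 5 mg/kg against vehicle stayed at 0 in 12 of 15 other settings and was 1, Fpr2, with a floor of 32 (-1.34, limma adjusted p = 0.0332), with the probe sets of a gene averaged (-1.34, 0.0461) and with array weights (-1.32, 0.0384). Fpr2 has 1 probe set, and its lowest normalised intensity was 48.5. With a floor of 32 and with averaged probe sets its own values and difference were therefore unchanged, and only other genes in the moderation and adjustment differed. For the array weights the cause was not tested. Leaving out 1 array at a time gave 0 to 1 genes called. It stayed at 0 at 1 mg/kg against vehicle and between the doses under every setting run. The log2 difference of Fpr2 at 5 mg/kg ran over -1.38 to -1.19 across settings and -1.53 to -1.22 across single-array omissions, and that of Chil3 over -1.66 to -1.15 and -1.74 to -1.22.

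With the 18S signal as a covariate the median log2 difference of the 23 genes was -0.57 at 5 mg/kg and -0.38 at 1 mg/kg, against -0.10 and -0.12. The cause of this shift was not tested, nor was whether all tested genes shared it. The 18S signal did not overlap between the vehicle and 5 mg/kg groups, so the covariate cannot be fully separated from that dose. Without scaling the median of all tested genes at 5 mg/kg was 0.10 and that of the 23 genes 0.01. Leaving out 1 array gave medians of -0.17 to 0.14 at 5 mg/kg, highest without 5 mg/kg replicate 2, -0.25 to -0.01 at 1 mg/kg and 0.02 to 0.23 between the doses.

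Over all tested genes, 11 were called at 5 mg/kg against vehicle. That count was 1 without scaling, 45 with a floor of 32, 22 when a gene needed only 1 array above the floor, 33 with the mean of probe sets, 32 with each probe set on its own, 65 with array weights, 18 with only the 2 groups compared, 0 with the 18S covariate, 7 without the 2 arrays of highest liver signal, and 8 to 22 without single arrays. At 1 mg/kg the count of 1 was 0 without scaling, when a gene needed 1 or 10 arrays above the floor, with array weights, with only the 2 groups, with the 18S covariate, with the replicate block and without the 2 liver-high arrays, and 0 to 2 without single arrays. Between the doses it was 1 with a floor of 8 and 0 to 1 without single arrays.

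Among single genes, several differences that were not called changed sign. At 5 mg/kg against vehicle, the 18S covariate gave 0.88 for Hp, -0.94 for Pglyrp1, -0.17 for Trem1, -0.80 for Trem3, -0.23 for Cyp4f18, 0.46 for Cebpa and -0.38 for Cebpd, and at 1 mg/kg -0.37 for Ltf and -0.15 for Trem1. Hp at 5 mg/kg was also 0.013 without scaling and 0.35 without the 2 liver-high arrays. Cyp4f18 at 5 mg/kg was -0.11 with a floor of 8, -0.033 with the mean of probe sets, -0.021 with array weights and -0.067 without the 2 liver-high arrays, where Itgb2l at 1 mg/kg was 0.089. A floor of 32 gave -0.059 for Trem3 at 5 mg/kg, and 0.066 for Mmp8 and 0.12 for Cyp4f18 at 1 mg/kg. A floor of 8 gave 0.14 for Ltf at 5 mg/kg and 0.0097 for Mpo between the doses. The cause was not tested for any of these. Clec4e (-1.03) and Ncf1 (-0.98) at 5 mg/kg had a limma adjusted p under 0.05 once arrays were weighted, and Cebpb (-0.94) did so both then and at the floor of 32.

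Leaving out single arrays, the difference at 5 mg/kg against vehicle ran over -0.43 to 0.35 for Hp, -0.47 to 0.14 for Csf3r, -0.34 to 0.21 for S100a9, -0.27 to 0.14 for Ltf, -0.13 to 0.30 for Pglyrp1, -0.010 to 0.37 for Trem3, -0.27 to 0.27 for Cyp4f18 and -0.026 to 0.31 for Cebpd. That at 1 mg/kg ran over -0.026 to 0.17 for Anxa1, -0.026 to 0.42 for Ltf, -0.40 to 0.010 for Mmp8, -0.26 to 0.11 for Trem3, -0.21 to 0.031 for Itgb2l, -0.20 to 0.0028 for Adam8 and -0.60 to 0.0082 for Cyp4f18. Between the doses it ran over -0.46 to 0.10 for Mpo, -0.17 to 0.42 for Chil3 and -0.051 to 0.58 for S100a8. Of the genes whose values are printed, 24 of 34 at 5 mg/kg, 19 of 27 at 1 mg/kg and 5 of 8 between the doses kept their sign throughout.

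With the replicate number as a block, 0 of the 23 genes were called in any comparison, and Fpr2 at 5 mg/kg had a limma adjusted p of 0.128. Over all genes the replicate block gave 9 calls at 5 mg/kg. Arrays of the same number correlated at -0.28 to 0.35 in their deviations (15 pairs, 3 over 0.1), against -0.37 to 0.39 for different numbers, and 4 of 15 arrays correlated best with their own number. These correlations lay on both sides of 0 for same and different numbers, and cannot settle whether the numbers pair the arrays. The sample titles give a number only, and the main fit used no pairing. The liver covariate and the omission of the 2 liver-high arrays, 1 mg/kg replicate 4 and vehicle replicate 1, were added after seeing the data. Signal over background limits Ltf, Cyp4f18, Mmp8 and Lrg1, which were at the floor on several arrays.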
